A study of Mus musculus with 6 samples.

Results

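The 6 genes described here, MSH6, MSH3, PMS2, PMS1, MLH3 and EXO1, encode proteins of DNA mismatch repair. They were taken by symbol from a table of 58884 named human genes, and all 6 had 1 row each. RNA was sequenced from tumours that DU145 cells, a human prostate cancer line, formed under the skin of male nude mice. There were 3 Zelnorm tumours (columns MBZ_254, MBZ_257 and MBZ_259) and 3 control tumours (NC10, NC4 and NC9). All 6 tumours shared the cell line and the host strain, and the groups differed in daily oral Zelnorm, at a dose and for a time that the sources used here do not give. Zelnorm is tegaserod, an agonist of a serotonin receptor, whereas the titles of that group read MBZ, which no label spells out. The samples are described as separate tumours, but no label names the animals, so p-values measure the spread between these tumours, each grown from the same line.

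Mismatch repair removes bases that DNA polymerase paired wrongly or slipped over at repeats. MutS heterodimers find the fault: the one with MSH6 binds mispaired bases and short loops, and the one with MSH3 binds longer loops. A MutL heterodimer then joins them, in which PMS2 supplies the nuclease that nicks the new strand. PMS1 and MLH3 take the place of PMS2 in other MutL dimers, the one with MLH3 being known mainly from crossing-over in meiosis. EXO1 is the exonuclease that removes the faulty stretch. DU145 has been described as a mismatch repair-deficient line, and how much of a transcript becomes stable protein is not seen in RNA.

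Epithelial markers other than KRT5 were strong in the human table. The summed level of 7 markers was 5530 to 6130 CPM in Zelnorm and 4740 to 6040 CPM in control tumours, where CPM is counts scaled to the TMM-adjusted total of the table. KRT8 had 1670 to 2480 CPM of it, while KRT5 had at most 0.203 CPM in any library. EPCAM was at 363 to 437 CPM over all tumours, while KLK2 and KLK3, genes of the differentiated prostate, were each below 0.1 CPM in every library. Human counts per library were 24495364 to 39102850, and the mouse table of the same libraries held 15.1% to 23.4% of the counts of both tables. The sources used here do not give how reads were divided between the tables. Of the counts for a symbol in both tables, the mouse table held 97.4% to 98.6% of PTPRC and 97.9% to 98.9% of CD14, both leukocyte markers. It held only 47.1% to 63.5% of CD68, a further leukocyte marker. For CDH5, an endothelial marker, its part was 98.6% to 99.7%, but for the collagen gene COL1A1 it was 76.2% to 79.1%. The control NC4 stood apart: among 10807 human genes with a mean of at least 10 CPM and a name held by 1 row, it was the lowest of the 6 libraries for 27.7% and the highest for 29.4%, against at most 16.3% and 17.5% in any other library. Fold changes and correlations of the 6 genes that moved most without NC4 are therefore also given without it.

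None of the 6 transcripts passed the test between Zelnorm and control tumours. edgeR's quasi-likelihood test called 0 of the 6, and 0.0% of all 18820 tested human genes, at an adjusted p under 0.05. At an unadjusted p under 0.05 it had 0 of the 6 against 1.31% of all tested genes. In all 6 the groups overlapped, and groups that did not overlap were found for 4.82% of all genes. The estimates were below 0 for 5 genes and above 0 for 1, with a median log2 fold change of -0.04, beside a median of -0.002 and 49.1% of genes above 0 over the table. Without NC4 they were below 0 for 5 and above 0 for 1, with a median of -0.09. Over the table the median was then 0.008, with 9436 of 19563 genes below 0. In bulk RNA, fewer cells of a type and less RNA per cell cannot be told apart.

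**Figure D1:**
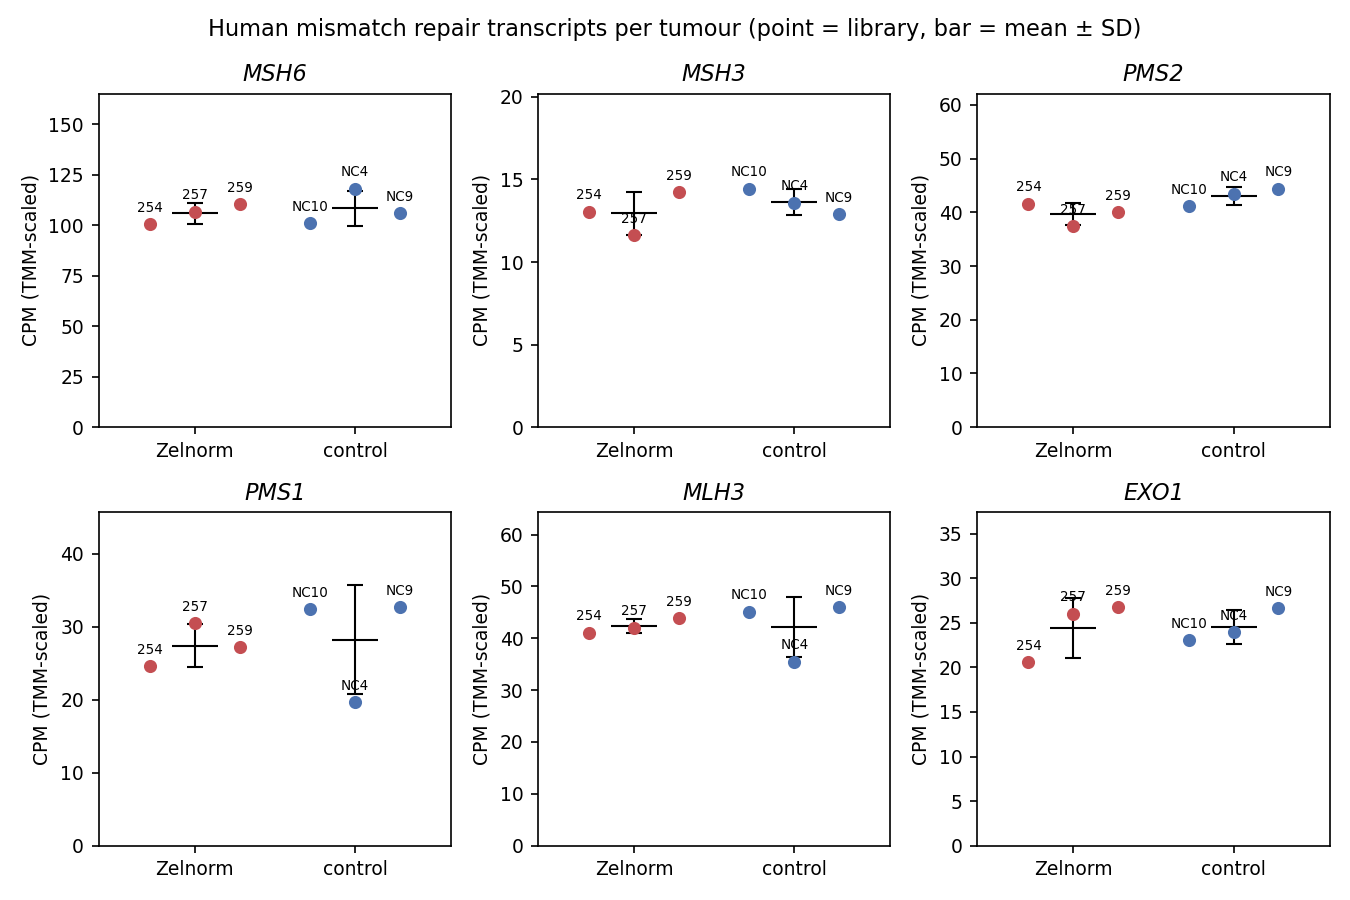
Level of each human mismatch repair transcript in CPM (vertical axis from 0), with the Zelnorm tumours on the left and the control tumours on the right; points are libraries and bars the mean ± SD of 3. Both groups overlapped for every gene, and the control NC4 lay lowest of the 6 for PMS1 (19.7 CPM) and MLH3 (35.5 CPM) and highest for MSH6 (118.1 CPM).

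MSH6, the subunit that binds mispaired bases, had 100.5, 106.8 and 110.4 CPM in the Zelnorm tumours MBZ_254, MBZ_257 and MBZ_259, against 101.1, 118.1 and 105.9 CPM in the controls NC10, NC4 and NC9. The lowest tumour was a Zelnorm one and the highest a control, and the other 4 lay between 101.1 and 110.4 CPM. The mean was 105.9 ± 5.00 CPM in Zelnorm and 108.4 ± 8.76 CPM in control tumours (SD, n = 3 each), a log2 fold change of -0.03 (SE 0.11; edgeR adjusted p = 1.0). The 95% interval of the ratio ran from 0.824 to 1.16. Without NC4, its highest tumour, the log2 fold change was 0.03, also not past the test.

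MSH3, the subunit for longer loops, had 13.0, 11.6 and 14.2 CPM in the Zelnorm tumours, against 14.4, 13.6 and 12.9 CPM in the controls, each in the order above. The lowest was MBZ_257 and the highest NC10, with tumours of both groups in between. The log2 fold change was -0.07 (SE 0.15; edgeR adjusted p = 1.0) with an interval of the ratio from 0.756 to 1.20. MSH3 had the fewest counts of the 6 genes, 320.54 to 513.77 per library, and counting alone gives a coefficient of variation of 5.02% there, against 7.70% measured over the 6 tumours.

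PMS2, the nuclease subunit of MutL, had 41.6, 37.4 and 40.1 CPM in the Zelnorm tumours and 41.1, 43.5 and 44.4 CPM in the controls. The 2 lowest tumours were Zelnorm ones and the 2 highest controls, while MBZ_254 lay between the controls NC10 and NC4. Its log2 fold change of -0.12 (SE 0.11; edgeR unadjusted p = 0.305, adjusted p = 1.0) was the farthest from 0 of the 6, with an interval of the ratio from 0.781 to 1.09. It stayed below 0 in all 12 alternatives and was called in 0 of them.

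PMS2 has near-identical copies, so its level is uncertain. The table held 11 rows for such copies, of which 8 passed the filter on low counts, and none of the 6 values of PMS2 was a whole number. Those of MSH6 and MSH3 were not whole either, while all values of MLH3 and EXO1 were. PMS2CL, the copy with the most counts, had 997.03 to 1262.01 counts in Zelnorm and 1004.39 to 1485.31 counts in control libraries, about as many as PMS2 itself at 1023.11 to 1446.89 and 1083.68 to 1767.74. Of the counts on PMS2 and the 11 copies, PMS2 held 39.5% ± 0.55 in Zelnorm and 39.9% ± 1.90 in control tumours (SD, n = 3 each). That is -0.374 percentage points apart, within the spread of the tumours (exact two-sided permutation p = 0.8; 3 against 3 tumours cannot go below 0.1). In single libraries the share ran from 37.8% in NC10 (95% Wilson interval 36.1 to 39.6) to 41.5% in NC9 (40.1 to 43.0). PMS2CL had a log2 fold change of -0.10 (SE 0.12), PMS2P1 of -0.01 (SE 0.15) and PMS2P6 of -0.03 (SE 0.19), none past the test. The tested copy farthest from 0 was PMS2P5, at log2 -0.805 (SE 0.38; edgeR unadjusted p = 0.0631), also not past the test. It had only 7.13 to 36.72 counts per library, and its groups did not overlap, as in 4.82% of all genes. With all copies added to PMS2 the log2 fold change was -0.10. A further row, DTX2P1-UPK3BP1-PMS2P11, which spans a copy, was left out of these sums and had 519 to 926.75 counts per library.

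PMS1, a MutL subunit without a settled repair role, varied most among the 6. It had 24.6, 30.5 and 27.2 CPM in the Zelnorm tumours, against 32.4, 19.7 and 32.7 CPM in the controls. The controls NC10 and NC9 lay above all 3 Zelnorm tumours and NC4 below all 3. The means of 27.4 ± 2.94 CPM in Zelnorm and 28.2 ± 7.42 CPM in control tumours gave a log2 fold change of -0.04 (SE 0.20; edgeR adjusted p = 1.0; interval of the ratio 0.717 to 1.31). Without NC4 the control mean was 32.5 CPM and the log2 fold change was -0.24 (edgeR unadjusted p = 0.0787, adjusted p = 0.998). The groups then no longer overlapped, which was so for 19.5% of all tested genes with 3 against 2 tumours.

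MLH3, the MutL subunit of meiotic crossing-over, had a pattern near that of PMS1, except that MBZ_257 and MBZ_259 stood in the opposite order. It had 41.1, 42.0 and 43.8 CPM in the Zelnorm tumours and 45.2, 35.5 and 46.0 CPM in the controls. Again NC10 and NC9 lay above the Zelnorm tumours and NC4 below them. The log2 fold change was 0.004 (SE 0.13; edgeR adjusted p = 1.0) with an interval of the ratio from 0.823 to 1.22. Without NC4 it was -0.11 (edgeR unadjusted p = 0.255, adjusted p = 0.998), and MLH3 was then also among the 19.5% of genes without overlap.

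EXO1, the exonuclease, had 20.6, 26.0 and 26.7 CPM in the Zelnorm tumours and 23.0, 23.9 and 26.6 CPM in the controls. Zelnorm tumours held both the lowest and the highest value. The log2 fold change was -0.005 (SE 0.14; edgeR adjusted p = 1.0) with an interval of the ratio from 0.797 to 1.25. Without MBZ_254, its lowest tumour, the log2 fold change was 0.10, also not past the test.

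**Figure D2:**
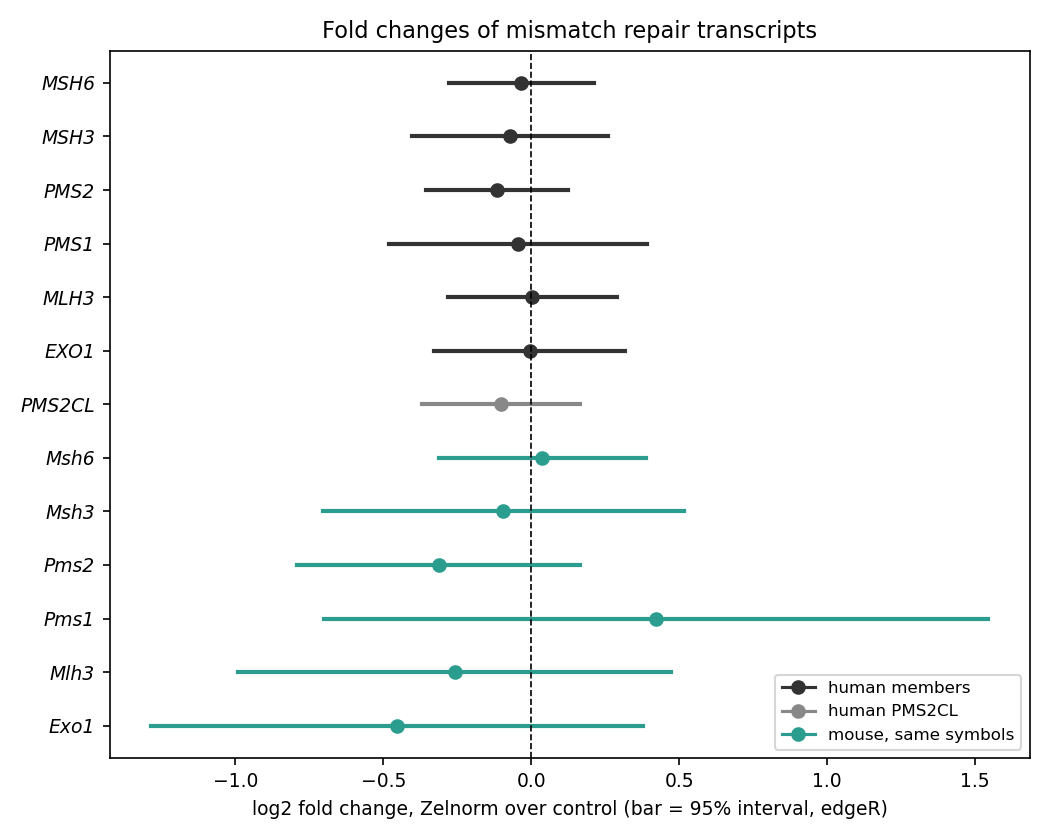
Log2 fold changes of Zelnorm over control (horizontal axis) with 95% intervals from edgeR for the 6 human genes, for PMS2CL, and for the mouse genes of the same symbols. Every interval includes 0. Those of the human members lie within -0.48 to 0.39 and those of the mouse genes within -1.28 to 1.54. Each mouse interval is wider than that of the human gene of the same symbol, but that of Msh6 is narrower than that of human PMS1.

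The 6 transcripts did not vary as one block. The coefficient of variation over the 6 tumours was 6.05% for PMS2, 6.08% for MSH6, 7.70% for MSH3, 8.97% for MLH3, 9.94% for EXO1 and 18.2% for PMS1, beside a median of 10.9% over the genes with a mean of at least 10 CPM. Of those genes 86.6% varied less than PMS1 and 11.1% less than PMS2. Of 15 pairs, 8 had a Pearson correlation of log2 CPM above 0 across the 6 libraries, which share scaling and differ in depth and host share. PMS1 and MLH3 had the highest r, 0.93, and still 0.77 without NC4, while 6.35% of 10389 genes had an r over 0.9 with PMS1. PMS1 and MSH6 had an r of -0.65 and MLH3 and MSH6 of -0.68, but without NC4 these were 0.08 and 0.18. PMS2 and MSH3 had an r of 0.41, which was -0.71 without MBZ_257.

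MSH6 and EXO1 had the highest correlations of the 6 with cell division genes. A score over 21 division markers (mean log2 CPM minus each gene's mean over the 6 libraries) was -0.17, 0.01 and 0.12 in the Zelnorm tumours and -0.12, 0.09 and 0.07 in the controls. Its r across the 6 libraries was 0.83 with MSH6 (0.76 to 0.96 with any 1 library left out) and 0.84 with EXO1 (0.67 to 0.95). Of 10368 other genes with a mean of at least 10 CPM, outside the score and without provisional names, 3.11% had an r with it at least as high as that of MSH6 and 2.48% at least as high as that of EXO1. With PMS2 the r was 0.12 (-0.07 to 0.27 with any 1 library left out) and with MSH3 -0.02 (-0.29 to 0.33). With MLH3 it was -0.17 (-0.36 to 0.40) and with PMS1 -0.18 (-0.52 to 0.27), both highest without NC4, so the sign of these 4 turned with single libraries. MSH6 and EXO1 had an r of 0.45 with each other, which was 0.89 without NC4 and 0.07 without MBZ_254. These are descriptions of 6 libraries, and what part division has in either level was not tested.

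**Figure D3:**
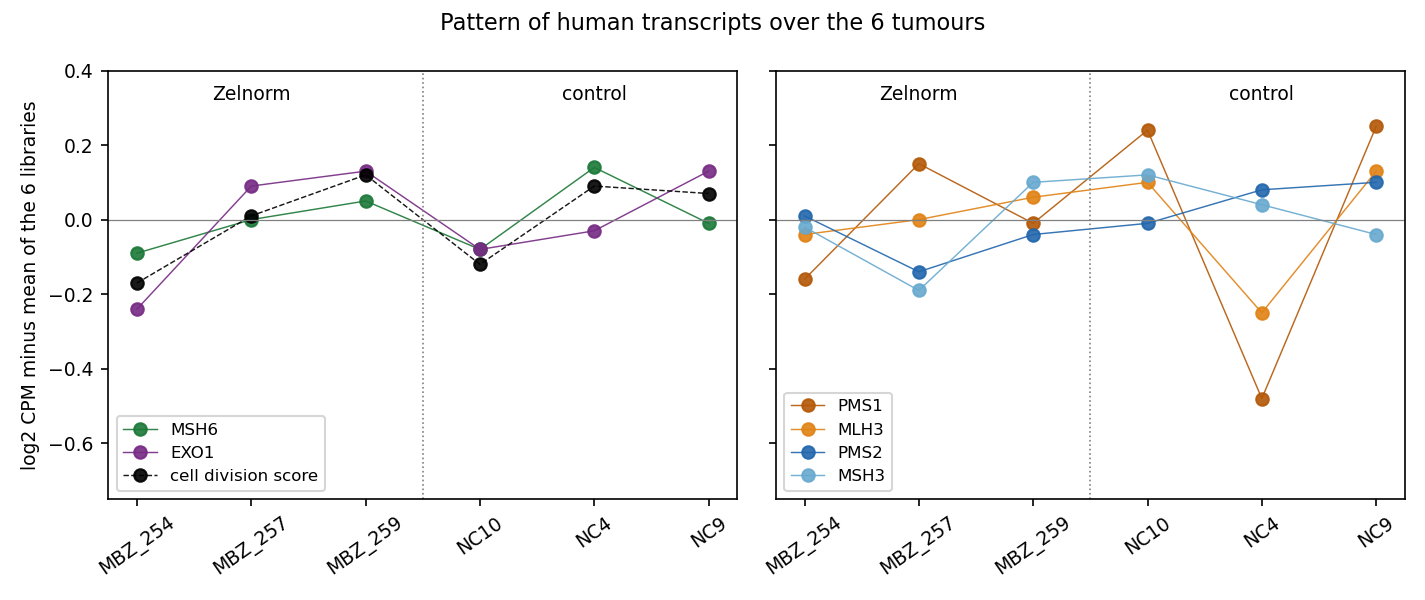
Log2 CPM minus the mean of the 6 libraries (vertical axis) for MSH6, EXO1 and the score of 21 division markers on the left, and for PMS1, MLH3, PMS2 and MSH3 on the right; points are libraries, Zelnorm before control, and lines join them only to guide the eye. MSH6 and EXO1 were low in MBZ_254 (-0.09 and -0.24), as was the score (-0.17), and PMS1 and MLH3 were low in NC4 (-0.48 and -0.25).

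Genes with the most similar pattern were looked for among 10389 human genes with a mean of at least 10 CPM, leaving out clone-based and other provisional names, by Pearson r of log2 CPM over the 6 libraries. For MSH6 they were ICMT (r = 0.996), GLE1 (0.993) and FAM173A (0.992), and for EXO1 KLHL42 (0.995), CTBS (0.976) and AP3B1 (0.975). For PMS1 they were RWDD1 (r = 0.997), ZNF420 (0.995) and TRAPPC8 (0.994), and for MLH3 NAA15 (0.996), METTL15 (0.995) and NUDCD1 (0.995). PMS2 was closest to CYB5RL (r = 0.977), ORAI2 (0.971) and PRSS23 (0.964), and MSH3 to WDR61 (0.970), PAQR5 (0.957) and COP1 (0.954). High values were common: 6.35% of the genes had an r over 0.9 with PMS1, 5.55% with MLH3 and 3.70% with MSH6, against 0.828% with EXO1, 0.221% with MSH3 and 0.173% with PMS2. Both PMS1 and its closest gene RWDD1 were lowest in NC4, RWDD1 at 12.8 CPM, against 15.5 to 20.3 CPM in the other tumours. RWDD1 was chosen by its r over these same libraries, so this likeness follows from the choice.

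MSH6 and MSH3 compete for one MutS partner, and PMS2, PMS1 and MLH3 for one MutL partner, so their balance was compared within each library as a log2 ratio of counts. Such a ratio does not depend on scaling, and since no human transcript lengths were used here, it does not say which gene has more molecules. MSH6 over MSH3 was 2.94, 3.20 and 2.96 in the Zelnorm tumours and 2.81, 3.12 and 3.04 in the controls. The groups overlapped, and the means of 3.03 ± 0.14 in Zelnorm and 2.99 ± 0.16 in control tumours (SD, n = 3 each) differed by less than the spread (exact two-sided permutation p = 0.9, where 0.1 is the least that 3 against 3 allows).

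PMS2 over PMS1 was 0.76, 0.29 and 0.56 in the Zelnorm tumours and 0.34, 1.14 and 0.44 in the controls, where NC4 stood highest of the 6. The difference of means was -0.11 (exact two-sided permutation p = 0.8), and 0.14 without NC4. PMS2 over MLH3 averaged -0.09 ± 0.10 in Zelnorm and 0.04 ± 0.23 in control tumours (exact two-sided permutation p = 0.6), and the difference of -0.13 was -0.0005 without NC4. PMS1 over MLH3 averaged -0.63 ± 0.15 and -0.61 ± 0.21 in the same order (exact two-sided permutation p = 1.0). EXO1 over MSH6, the nuclease against the subunit that finds the fault, averaged -2.12 ± 0.14 in Zelnorm and -2.14 ± 0.16 in control tumours (exact two-sided permutation p = 0.9). All 5 ratios overlapped between the groups, and adjusted over the 5 each p was 1.0.

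**Figure D4:**
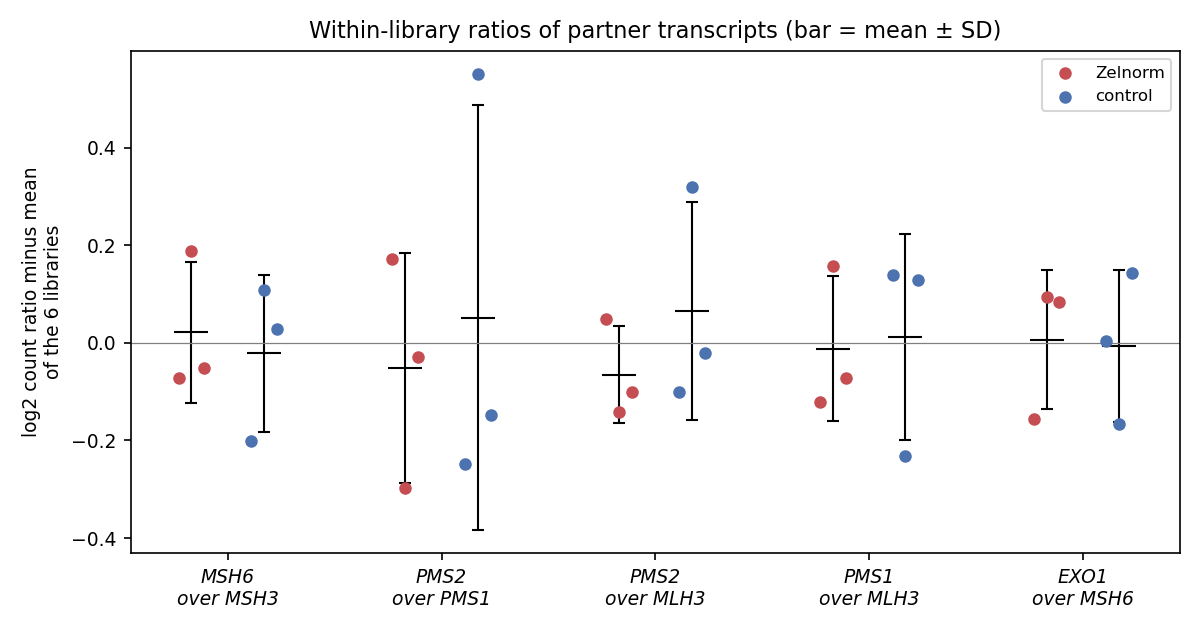
Log2 count ratios of partner transcripts within a library, minus their mean over the 6 libraries (vertical axis), for 5 pairs, with Zelnorm to the left of control; points are libraries and bars the mean ± SD of 3. The groups overlapped for all 5 pairs, and the widest spread is that of PMS2 over PMS1 in the controls, from 0.34 to 1.14 before centring.

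Other repair genes did not pass the test either. Of 72 genes in 5 lists, 51 of them in 4 repair lists and 21 division markers, all tested, 0 were called and 0 had an unadjusted p under 0.05 in edgeR's test. Without NC4, 0 were called and 3 of the 72 had an unadjusted p under 0.05, namely RFC1, WDHD1 and NBN, beside 3.02% of all genes tested. Groups did not overlap for 1 of the 72, NEIL1, beside 4.82% of all genes. NEIL1, a glycosylase that removes oxidised bases, averaged 35.4 ± 1.10 CPM in Zelnorm and 32.6 ± 2.25 CPM in control tumours (log2 0.12, SE 0.11).

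Genes that carry out excision, resynthesis and ligation were lower in 12 of 15 (median log2 fold change -0.04), but in 6 of 15 without NC4. The 4 with the smallest p were RFC1 (log2 -0.11), RFC2 (-0.08) and RFC3 (-0.09), parts of the loader that places the sliding clamp on DNA, and RPA2 (-0.07), which covers single-stranded DNA. PCNA, the clamp itself, was at log2 0.04 (SE 0.12). Without NC4 the log2 fold changes were -0.225 for RFC1 (edgeR unadjusted p = 0.0334, adjusted p = 0.998), 0.02 for RFC2, -0.17 for RFC3 and -0.0036 for RPA2.

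Other MutS homologues and cofactors were higher in 4 and lower in 5 of 9, but higher in 6 and lower in 3 without NC4. MSH5, a meiotic MutS protein, was at log2 0.21 (SE 0.18), which was 0.03 without MBZ_257 and 0.13 without NC4. The read-through row MSH5-SAPCD1 had 226.64 to 529.68 counts beside 309.76 to 636.74 for MSH5, and how reads were divided between them was not tested. MSH4, the partner of MSH5, had 52 to 72 counts per library. MCM8, a helicase subunit, was at log2 0.20 (SE 0.16), FAN1, a nuclease that binds MutL, at -0.11 (SE 0.13) and WDHD1, a replication fork protein, at -0.09 (SE 0.15). Without NC4, WDHD1 was at log2 -0.23 (edgeR unadjusted p = 0.048, adjusted p = 0.998).

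Other nucleases and resection genes were lower in 9 of 12, with a median of -0.02. They included BLM (log2 -0.09), a helicase, FEN1 (0.07), the flap nuclease, and the end-resection genes NBN (-0.08) and RBBP8 (-0.07). Without NC4 the median of this list was -0.15, with 8 of 12 lower, beside a median of 0.008 over all tested genes. NBN was then at log2 -0.27 (edgeR unadjusted p = 0.0388, adjusted p = 0.998), RBBP8 at -0.26, BLM at -0.17 and FEN1 at 0.15. Base excision genes were higher in 9 of 15, with a median of 0.02. Besides NEIL1, the smallest p were those of UNG (log2 -0.14) and SMUG1 (0.08), which remove uracil, and LIG3 (-0.10), a ligase. Without NC4, UNG was at log2 -0.03, SMUG1 at 0.06 and LIG3 at 0.03. Cell division markers were lower in 14 of 21 (median -0.04), and in 10 of 21 without NC4. TOP2A was at log2 -0.11 (SE 0.15), CCNE1 at 0.14 (SE 0.19), MKI67 at -0.10 (SE 0.15) and E2F1 at -0.14 (SE 0.21). Without NC4 these log2 fold changes were -0.24 for TOP2A, 0.27 for CCNE1, 0.02 for MKI67 and 0.15 for E2F1.

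The host's own mismatch repair genes were read in the mouse table, where all 6 passed the filter on low counts. edgeR's quasi-likelihood test in that table called 0 of the 6 and 0.0% of 14459 genes, and 0 of the 6 had an unadjusted p under 0.05, against 1.75% of all. The groups overlapped for all 6, beside 5.52% of mouse genes without overlap. Counts were low, from 8 for Pms1 in NC4 to 327 for Msh6 in NC9. Msh6 averaged 36.1 ± 4.16 CPM in Zelnorm and 35.1 ± 1.72 CPM in control tumours, a log2 fold change of 0.04 (SE 0.15). Pms2 had 10.7, 13.0 and 11.7 CPM in the Zelnorm tumours and 17.2, 12.4 and 14.2 CPM in the controls (log2 -0.31, SE 0.21; edgeR unadjusted p = 0.17, adjusted p = 1.0). MBZ_257 lay above NC4, and the other Zelnorm tumours lay below all controls. Pms1, at log2 0.42 and 0.09 without NC4, had the widest interval of the ratio, 0.616 to 2.91, and Exo1 one of 0.411 to 1.30.

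Per kilobase of annotated exon (GENCODE vM21, GRCm38), Msh6 was the highest of the host genes, at 8.30 ± 0.96 CPM per kb in Zelnorm and 8.07 ± 0.40 in control tumours. Msh6 lies on chromosome 17 from 87975062 to 87990892, with an exon length of 4346 bases. Pms2 followed with 1.45 ± 0.14 and 1.80 ± 0.29 CPM per kb, and Mlh3 with 1.31 ± 0.51 and 1.57 ± 0.33, in Zelnorm and control tumours, and those genes overlapped in both groups. Msh3 was at 0.73 ± 0.05 and 0.79 ± 0.21 CPM per kb, below both. Exo1, at 0.26 ± 0.05 and 0.35 ± 0.07, and Pms1, at 0.39 ± 0.13 and 0.29 ± 0.13, overlapped with each other and lay below Msh3 in all libraries. Annotated exons include ends that a transcript may not use, which lowers the value of genes with many isoforms.

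**Figure D5:**
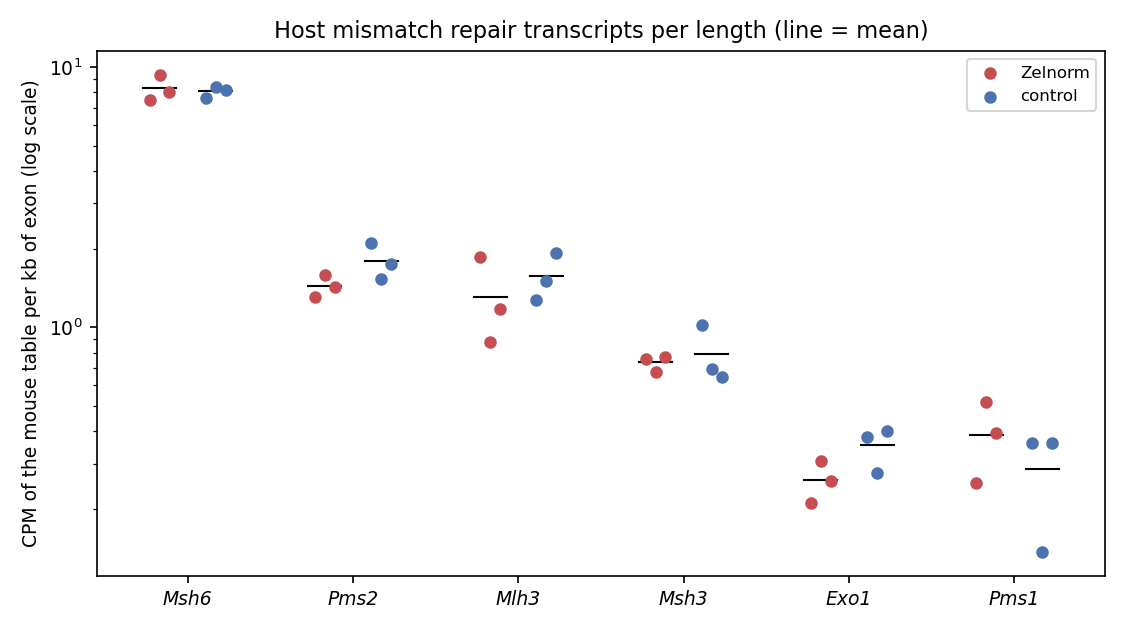
Level of the 6 mouse mismatch repair genes in CPM per kb of annotated exon (vertical log axis), with Zelnorm to the left of control; points are libraries and lines means. Msh6 lies above the other 5 genes in every library, with means of 8.30 in Zelnorm and 8.07 in control tumours.

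The mouse part of a gene's reads differed between genes. Of the counts for a symbol in both tables, the mouse table held 9.82% to 17.3% for MSH3, 5.98% to 9.42% for MSH6, 5.47% to 8.99% for PMS2, 2.58% to 9.90% for MLH3, 1.64% to 3.19% for EXO1 and 1.55% to 2.58% for PMS1. For each of the 6 genes the share was below that of the whole library in all 6 libraries; MSH3 came nearest, with 17.3% against 23.4% in MBZ_254 and 15.9% against 19.3% in NC10. For MSH6 the share was highest in MBZ_254 (9.42%, Wilson interval 8.38 to 10.6) and lowest in MBZ_257 (5.98%, 5.26 to 6.80), the tumours with the highest and the lowest mouse share overall. Among epithelial markers the mouse table held at most 0.037% of EPCAM, but 9.05% to 10.2% of KRT8. Of KRT5, with only 22 human counts in total, it held 59.2% to 93.8%. The muscle gene MYH4 had 62.0 CPM in MBZ_259 and 0 CPM in MBZ_254 in the human table, where mouse Myh4 had 1210 and 0 CPM. How far reads of one species entered the other table for the 6 genes was not tested.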

How the data were processed

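The authors deposited estimated counts per gene, not scaled to depth, in a human and a mouse table of the same 6 libraries. The builds GRCh38 and GRCm38 and the tools HISAT2, StringTie, edgeR and DESeq2 come from the submitters' processing notes, which state no roles. Above 0, 38.0% of human and 27.0% of mouse values were not whole, so values were rounded for the tests, which had been planned for raw counts. Rows without a gene name (574 of 59458 human, 856 of 56392 mouse; 0.407% to 0.518% and 0.317% to 0.468% of counts) were left out. Column numbers match no label, so columns were tied to groups only.

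Each table was tested whole with edgeR 4.0.16 in R 4.3.3 (quasi-likelihood, two-sided, filterByExpr, TMM, Benjamini-Hochberg, threshold 0.05) and checked on simulated data. Fold changes (log2, Zelnorm over control) have an SE from the F statistic and 95% intervals. Ratios used counts plus 0.5. Likeness used log2(CPM + 0.01). Wilson intervals and counting variation cover counting error only. Human counts were 24495364 to 39102850 and mouse counts 5798742 to 9185279 per library. Alternatives were RLE factors, library totals, DESeq2 1.42.0, limma-voom 3.58.1, no count filter, PMS2 with its copies and leaving out each library. Members, lists and tests were chosen with earlier results of these data known. Named were the 6 members and their mouse symbols, the 3 largest PMS2 copies, up to 4 genes with the smallest p per list and the 3 most similar genes per member. PCNA, MSH4, PMS2P5 and marker genes were named after their values were seen. Human coordinates and sequences were not used here, and the obligate partners of these proteins are not reported here, nor is 1 gene that the rule names.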

Additional observations from a re-analysis of the deposited data

How the results depend on the processing

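No paired analysis was possible because the table columns carry no replicate number that the labels share. The number of called human genes, 0 with edgeR, was 1 with DESeq2 and 61 without the count filter; in the mouse table the 0 became 6 and 2. None of these was one of the 6 genes or their mouse symbols, whose adjusted p was at least 0.998 in every human and 0.75 in every mouse alternative. Directions near 0 turned with library totals only for MLH3 (log2 fold change -0.018) and Msh6 (-0.0032), and without the count filter for EXO1 (0.0036). With 1 library left out, differences of log2 ratios ran from -0.044 to 0.11 for MSH6 over MSH3, from -0.26 to 0.14 for PMS2 over PMS1, from -0.14 to 0.041 for PMS1 over MLH3 and from -0.061 to 0.10 for EXO1 over MSH6. Log2 fold changes that turned ran from -0.24 to 0.079 for PMS1, -0.11 to 0.075 for MLH3, -0.079 to 0.034 for MSH6, -0.14 to 0.0022 for MSH3 and -0.073 to 0.10 for EXO1. Among copies and list genes they ran from -0.11 to 0.050 for PMS2P1, -0.12 to 0.052 for PMS2P6, -0.15 to 0.017 for RFC2, -0.23 to 0.011 for WDHD1, -0.17 to 0.013 for BLM, -0.032 to 0.18 for FEN1, -0.27 to 0.083 for NBN, -0.26 to 0.11 for RBBP8 and -0.16 to 0.027 for LIG3. For TOP2A they ran from -0.24 to 0.065, for CCNE1 from -0.028 to 0.27, for MKI67 from -0.22 to 0.017, for E2F1 from -0.29 to 0.15, for Msh6 from -0.043 to 0.094 and for Msh3 from -0.23 to 0.12. The cause was not tested. PMS2, Pms2, Pms1, Mlh3 and Exo1 kept their direction in each alternative run. Values without NC4 in correlations, list counts and shares of all genes were chosen after the data were seen. With 3 tumours a group, the intervals of the ratios set what could be seen: at best 0.781 to 1.09 (PMS2) and at worst 0.616 to 2.91 (Pms1).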
